A study of Mus musculus with 63 samples.

Results

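Of the 63 arrays of this series, 29 were made from Eµ-myc lymphomas labelled CTX 4h with 100 ng of RNA input. These 29 were ranked by a score of 7 p53-induced genes. The 10 arrays with the highest score were compared with the 10 with the lowest, and the other 9 belonged to neither group. The lymphomas came from lymph nodes of C57BL/6 mice that carry the Eµ-myc transgene, in which the immunoglobulin heavy chain enhancer drives Myc in the B lineage. Per the labels, recipient mice carrying transplanted lymphomas received cyclophosphamide (CTX), an alkylating drug, as 1 intraperitoneal dose of 300 mg/kg, and CTX 4h is the treatment label of all 20 arrays. No age is used here. The native label marks untreated lymphomas, of which 15 were also run with 100 ng. The description of the series speaks of untreated samples alone, so the treated status rests on the array labels. The nodes were processed without purification of the tumour cells. Each array carries its own lymphoma number, and no treated array has an untreated array of the same lymphoma. The score is therefore a level after the drug and not a measured change, and the groups are called high-score and low-score below. Nothing in the labels says whether the arrays of a group came from independent recipients. A p-value here covers the variation between arrays of different lymphoma numbers, with technical variation included.

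The transcription factor p53 is held low by the ubiquitin ligase Mdm2 and is released from it after DNA damage. It then induces genes of cell death, cell cycle arrest, DNA repair and its own feedback. Eµ-myc lymphomas grow under pressure to lose this pathway, through Trp53 itself or through Cdkn2a, whose product p19Arf inhibits Mdm2.

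The score averaged Sesn2 (a sestrin that restrains growth signalling), Phlda3 (an inhibitor of Akt), Plk2 (a stress-induced kinase), Bbc3 (the death activator PUMA), Zmat3 (an RNA-binding protein), Ccng1 (cyclin G1) and Mdm2. Each gene was centred among arrays whose lymphoma number starts with the same digit (1, 8 or 9). The sources used here do not say what that digit stands for. High-score arrays ran from 0.14 through a median of 0.41 to 0.998 on this log2 scale, and low-score arrays from -0.67 through -0.41 to -0.105. The nearest arrays outside the groups were at 0.114 and -0.0707. The high-score group held 2 arrays of first digit 1, 3 of digit 8 and 5 of digit 9, and the low-score group held 1, 3 and 6. These values chose the groups and are given as a description.

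**Figure D1:**
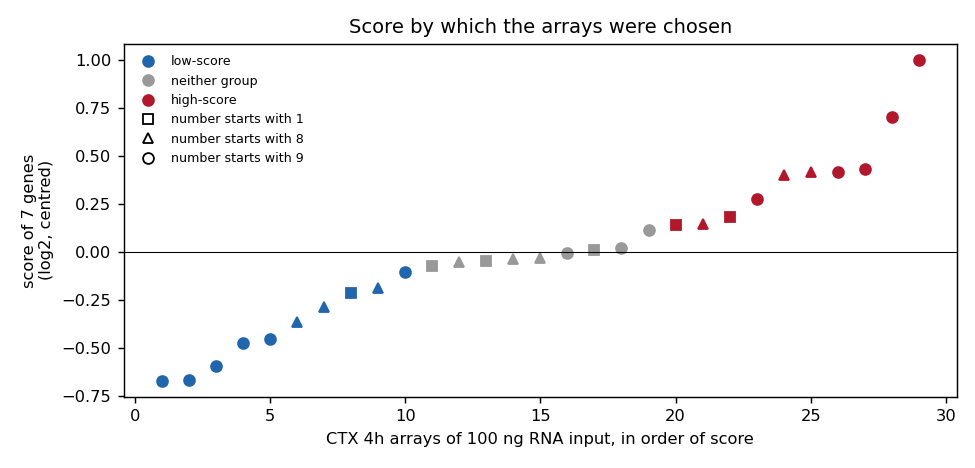
Score of each of the 29 CTX 4h arrays of 100 ng input (y axis, log2 units centred within first digit) in order of score (x axis). Colours mark the 10 low-score, 9 other and 10 high-score arrays, marker shapes mark the lymphoma number's first digit, and the scores rise without a wide gap at either edge, from -0.0707 to -0.105 and from 0.114 to 0.14.

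The 7 genes did not contribute alike. Mean log2 levels in high-score and low-score arrays were 12.04 and 10.92 for Ccng1, 8.33 and 7.21 for Sesn2, and 8.64 and 7.56 for Phlda3. They were 7.94 and 7.12 for Zmat3, 8.01 and 7.24 for Bbc3, and 9.77 and 9.20 for Mdm2. Plk2 differed least, with 7.69 and 7.57. Without centring, the mean of the 7 genes ran from 8.58 to 9.52 in high-score arrays, from 7.86 to 8.42 in low-score arrays and from 7.40 to 8.52 in native arrays of 100 ng. The low-score and native means were 8.116 and 8.124, over members that lay on either side. Low-score and native means were 7.57 and 6.99 for Plk2, 10.92 and 11.30 for Ccng1, 7.12 and 7.45 for Zmat3, 9.20 and 9.35 for Mdm2, and 7.24 and 7.19 for Bbc3. These uncentred means do not adjust for first digit.

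Some facts apply to all results below. The median log2 value of an array ran from 6.53 to 7.11 over the series. Pan-B-cell markers (12 genes, among them Cd79a, Pax5 and Ms4a1) averaged 10.97 ± 0.51 in high-score, 11.18 ± 0.41 in low-score and 11.28 ± 0.48 in native arrays (log2, SD, n = 10, 10 and 15). These means do not adjust for first digit, in which native arrays differ from the score groups. With first digit as a term, the median difference from native over these genes was -0.15 in high-score arrays. In low-score arrays it was 0.11, the other direction from the means. The nodes also held other cells, and in such bulk samples fewer cells of a type and less RNA per cell cannot be told apart. CTX 4h replicate 29 of the low-score group was the highest of its group for T-cell and neutrophil genes. It was the only low-score array of first digit 1, so high-score against low-score fits without it make no comparison within that digit. Native replicates 8 and 19 stood apart, with mean correlations to the other arrays of 0.906 and 0.915, and comparisons with native arrays are also given without them. Replicate 19 was run with 300 ng, so comparisons that use only 100 ng native arrays lose replicate 8 alone. The arrays were also the source of the score, so any array-wide shift enters both the score and the genes tested.

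Outside the score genes, 7 genes were higher and 1 was lower in high-score arrays, of 19931 tested (0.0401%, limma with Benjamini-Hochberg adjustment at 0.05, first digit as a term). Without adjustment, 1081 genes had p under 0.05 (5.42%). No gene separated the groups without overlap (0%). The 8 calls were Slc19a2 and Trp53inp1 of the p53 lists, Inka2 and Csrnp2, the macrophage and chemokine genes Adgre1, Ms4a7 and Ccl9, and Lmbr1.

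Inka2, which encodes an inhibitor of the kinase PAK4, ran from 5.99 through a median of 6.91 to 7.63 in high-score arrays and from 5.59 through 5.97 to 6.24 in low-score arrays (log2). In native arrays it ran from 5.45 through 5.86 to 6.28. All but 1 of the high-score arrays lay above every low-score and every native array. The difference was 0.97 ± 0.14 (log2, SE, adjusted p = 0.0138). Csrnp2, a member of a small family of nuclear transcription regulators, ran from 7.51 through 7.98 to 8.59 in high-score arrays and from 6.97 through 7.03 to 7.58 in low-score arrays. It was higher in high-score arrays by 0.93 ± 0.14 (adjusted p = 0.0138), and 9 of the 10 high-score arrays exceeded every low-score array. These calls held in all 20 fits that left out 1 array, with adjusted p up to 0.0408. Both ended when the mean of the small RNA genes was added as a term (0.83 and 0.88, adjusted p = 0.0626 for each) or that of the mitosis genes (0.91 and 0.81, adjusted p = 0.0514 for each). The part of these in the differences was not tested.

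Slc19a2, the gene of a thiamine transporter, ran from 8.67 through 9.33 to 9.76 in high-score arrays and from 7.86 through 8.45 to 8.91 in low-score arrays. The difference was 0.97 ± 0.16 (adjusted p = 0.0264), with 7 of 10 high-score arrays above every low-score array. Trp53inp1, whose product takes part in autophagy and cell death downstream of p53, ran from 11.14 through 11.52 to 11.85 against 10.45 through 10.83 to 11.33. It was higher by 0.66 ± 0.11 (adjusted p = 0.0311). Both calls were near the threshold. The Slc19a2 call ended without CTX 4h replicate 4, 7, 10, 11, 12, 16, 17 or 20, with adjusted p up to 0.0699. The Trp53inp1 call ended without replicate 1, 3, 4, 7, 10, 11, 12, 13, 14, 16, 17, 18 or 20, with adjusted p up to 0.101.

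Adgre1, which encodes a surface protein widely used to mark mouse macrophages, ran from 8.08 through 9.001 to 10.05 in high-score arrays and from 6.97 through 7.53 to 8.59 in low-score arrays. The difference was 1.35 ± 0.22 (adjusted p = 0.0264). Ms4a7, a membrane protein gene of macrophages, differed by 1.04 ± 0.17 (adjusted p = 0.0264), from 8.07 to 9.36 in high-score and 7.01 to 8.33 in low-score arrays. The chemokine gene Ccl9 differed by 1.06 ± 0.18 (adjusted p = 0.0264), from 9.33 to 11.01 and 8.26 to 9.75. All 10 high-score arrays lay above the low-score median for each of these 3 genes, while the extremes overlapped. Their calls ended without replicate 4, 10, 13, 14, 16, 17 or 29 for Adgre1 (adjusted p up to 0.0677) and without replicate 10, 16 or 17 for Ms4a7 (up to 0.0642). The Ccl9 call ended without replicate 1, 4, 7, 9, 10, 11, 14, 16, 17 or 20 (up to 0.0727).

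Lmbr1, a gene of a multipass membrane protein, was the lower one. It ran from 5.39 through 5.72 to 6.04 in high-score and from 5.99 through 6.20 to 6.63 in low-score arrays, a difference of -0.57 ± 0.10 (adjusted p = 0.0332). Its call was kept in 6 of the 20 fits that left out 1 array, with adjusted p up to 0.109, and ended without replicate 1, 4, 7, 9, 10, 11, 12, 13, 16, 17, 18, 20, 25 or 29. It also ended when both of its probe sets were averaged (-0.35, adjusted p = 0.246).

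**Figure D2:**
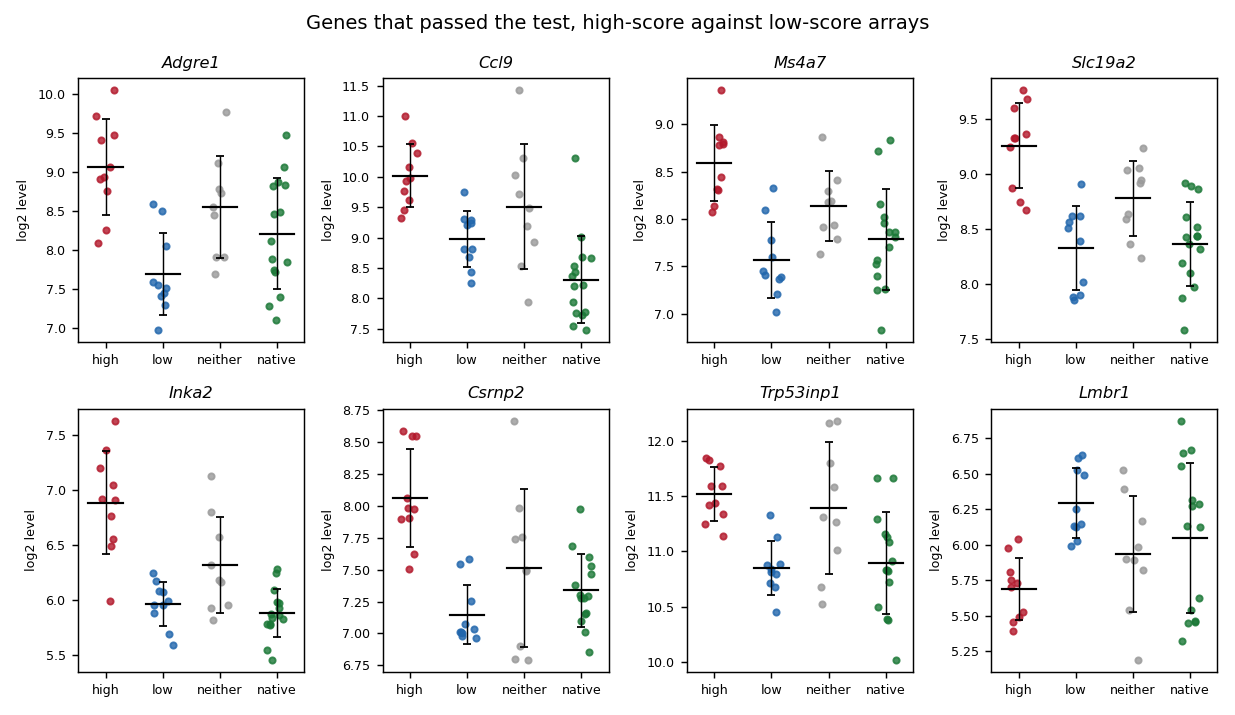
Log2 level (y axis) of the 8 genes that passed the test between high-score and low-score arrays, with 1 point per array, the mean as a line and the SD as a bar. Columns are 10 high-score, 10 low-score, 9 other CTX 4h and 15 native arrays of 100 ng; for Inka2, 9 of the 10 high-score arrays lie above every low-score and every native array.

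The direction of these differences was the same within each series of lymphoma numbers. For first digits 1, 8 and 9, Inka2 differed by 0.389, 0.901 and 1.155, and Csrnp2 by 0.529, 0.775 and 1.106. Slc19a2 differed by 1.136, 0.373 and 1.264, Trp53inp1 by 0.293, 0.829 and 0.665, and Adgre1 by 1.916, 0.70 and 1.561. Ms4a7 differed by 0.411, 0.728 and 1.357, Ccl9 by 0.981, 0.952 and 1.146, and Lmbr1 by -0.568, -0.574 and -0.565. First digit 1 holds only 2 arrays against 1. In the 9 arrays between the groups, which the comparison did not use, the slope on the score had the same sign for 5 of the 8 genes, where 46.7% of all genes had a positive slope. Over so narrow a range of scores only the sign is given.

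Promoter sequences of RefSeq (GRCm38.p6, 250 bases before to 50 after the start of a gene) were searched for the p53 response-element unit of 10 bases, which reads the same on both strands. A full element holds a pair of such units. The unit occurred in 9.55% of 27025 promoters. It occurred in 10 of the 38 promoters matched for the 46 measured genes of the p53 lists (26.3%) and in 2 of the 6 matched score genes, Mdm2 and Ccng1. Of genes called between the groups, 6 had a promoter and Inka2 held the unit. With genes called in the slope over all 29 arrays added, 24 had a promoter and 4 held the unit (16.7%). The share was 8.55% over the promoters of all genes tested. No promoter of these sets held a pair with at most 13 bases between. A match describes the letters only and is not a measured binding site. The windows shown, 5′ to 3′, are those of the 4 called genes that hold the unit and of the 2 score genes, so that the called genes can be read beside the score. Of the called genes, Inka2 passed between the groups, and Inka2, Polk, Ier5 and Cd68 passed in the slope over all 29 arrays (described below). Other list genes with the unit, such as Aen and Rps27l, are not printed. Capitals mark the unit. The windows lie at chr3:105705357-105705406 (plus strand, Inka2), chr13:96519389-96519437 (minus, Polk), chr1:155099773-155099822 (minus, Ier5), chr11:69666319-69666368 (minus, Cd68), chr10:117710915-117710964 (minus, Mdm2) and chr11:40755442-40755491 (minus, Ccng1). All lie upstream of the start site. The units in them begin 81, 231, 166, 178, 186 and 185 bases before it, in that order.
Inka2: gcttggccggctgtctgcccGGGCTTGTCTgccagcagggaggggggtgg
Polk: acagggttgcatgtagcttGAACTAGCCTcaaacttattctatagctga
Ier5: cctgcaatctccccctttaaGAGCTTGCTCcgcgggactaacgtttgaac
Cd68: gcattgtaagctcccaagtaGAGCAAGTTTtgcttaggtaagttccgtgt
Mdm2: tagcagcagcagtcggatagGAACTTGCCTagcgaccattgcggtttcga
Ccng1: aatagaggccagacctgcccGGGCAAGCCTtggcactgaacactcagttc

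The rest of the p53 pathway was followed through 5 lists with 46 measured genes outside the score. Of these, 35 were higher and 11 lower in high-score arrays, where 11045 of all 19931 genes were higher. The median difference of the 46 genes was 0.16, against 0.02 for all genes. Only Trp53inp1 and Slc19a2 passed the test, beside 0.0401% of all genes. Cdkn1a, Bax, Trp53, Gls2 and Gdf15 were not analysed here, because no single-gene probe set was used for them. The lists follow the same pathway as the score, so their direction is no independent evidence.

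Death targets had the highest median of the 5 lists, 0.28 over 12 genes, of which 11 were higher and 1, Trp53inp1, was called. Pidd1, the scaffold that activates caspase-2, ran from 7.91 through 8.90 to 9.60 in high-score and from 7.57 through 8.20 to 8.48 in low-score arrays. Its difference of 0.81 ± 0.16 did not pass (adjusted p = 0.0997), although 9 of 10 high-score arrays lay above every low-score array. Pmaip1, the death activator Noxa, ran from 7.42 through 8.14 to 8.80 against 7.21 through 7.47 to 8.03 (0.53 ± 0.12, adjusted p = 0.183). Differences were 0.48 for the TRAIL receptor gene Tnfrsf10b, 0.42 for the apoptosome gene Apaf1 and 0.35 for the nuclease gene Aen, with adjusted p of 0.649, 0.649 and 0.386. Fas, the death receptor gene, differed by 0.17 ± 0.23 and Perp, a gene of cell junctions, by -0.28 ± 0.21 (adjusted p of 0.999 for both).

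Repair targets had a median of 0.14 over 6 genes, 4 of them higher and none called. Polk, a polymerase that copies past DNA lesions, ran from 7.08 through 7.95 to 8.81 in high-score and from 6.66 through 7.16 to 7.83 in low-score arrays. The difference was 0.87 ± 0.18 (adjusted p = 0.146). The excision repair genes Ercc5 and Ddb2 differed by 0.26 ± 0.14 and 0.24 ± 0.17, and Xpc by 0.05 ± 0.11. Rrm2b, a ribonucleotide reductase subunit, differed by -0.32 ± 0.22.

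Stress and metabolic targets had a median of 0.17 over 11 genes, of which 8 were higher and 1, Slc19a2, was called. Psrc1, a spindle protein gene, ran from 7.93 through 8.62 to 9.45 against 7.33 through 7.88 to 8.23 (0.78 ± 0.19, adjusted p = 0.248). Dcxr, a sugar reductase gene, differed by 0.37 ± 0.08 (adjusted p = 0.196) and Rps27l, a ribosomal protein gene, by 0.36 ± 0.16 (adjusted p = 0.839). Sesn1, a sestrin like Sesn2 of the score, differed by -0.21 ± 0.30.

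Arrest targets had a median of 0.09 over 8 genes, with 7 higher and none called. The Gadd45 genes, which bind cell cycle and stress kinases, differed by 0.12 ± 0.12 (Gadd45a), 0.23 ± 0.20 (Gadd45b) and 0.03 ± 0.14 (Gadd45g). The antiproliferative gene Btg2 differed by 0.26 ± 0.22. The list of feedback and activation genes had a median of 0.06 over 9 genes (-0.04 without CTX 4h replicate 16), 5 of them higher and none called. Within it, Mdm4, the partner of Mdm2, differed by 0.16 ± 0.14 and the phosphatase gene Ppm1d by 0.06 ± 0.17.

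**Figure D3:**
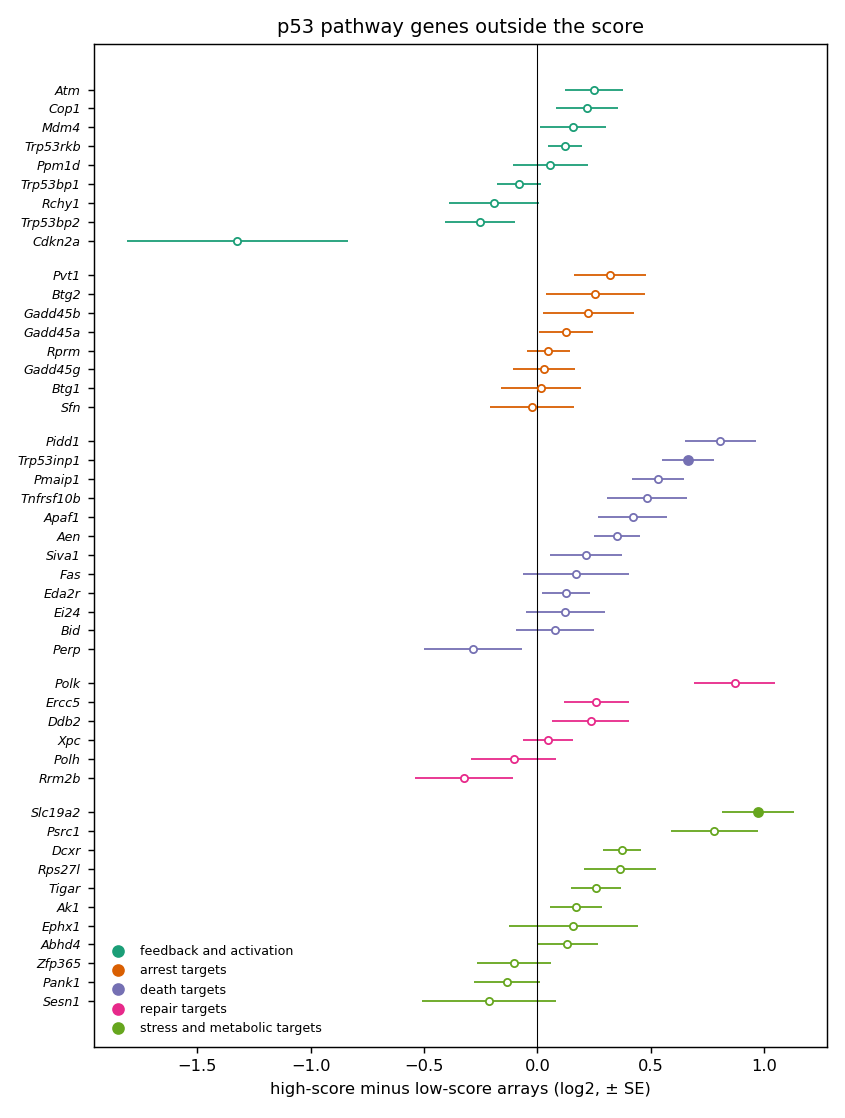
High-score minus low-score difference in log2 level (x axis, point with SE bar) of the 46 measured p53 pathway genes outside the score, grouped and coloured by list. Filled points (Trp53inp1 and Slc19a2) passed the test, and Cdkn2a has the most negative difference, -1.32.

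Cdkn2a, which encodes p19Arf and the kinase inhibitor p16Ink4a, had the largest negative difference of the p53 lists. It ran from 6.91 through 7.45 to 9.91 in high-score and from 6.92 through 9.56 to 10.75 in low-score arrays, and from 6.64 through 9.46 to 10.41 in native arrays. The difference of -1.32 ± 0.49 did not pass the test (adjusted p = 0.666). Among arrays of first digit 9, high-score arrays were at 6.91, 7.09, 7.49, 7.87 and 7.93, and low-score arrays at 8.95, 9.45, 9.77, 10.09, 10.38 and 10.75. These groups did not overlap, whereas the 3 digit-9 arrays between them were at 7.68, 7.95 and 8.16. The difference within digit 9 was -2.44 ± 0.30 (adjusted p = 0.0247).

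Among arrays of first digit 8, Cdkn2a was at 7.33, 7.41 and 9.91 in high-score and at 6.92, 7.27 and 9.68 in low-score arrays, a difference of 0.26. The difference between digits 9 and 8 was -2.70 ± 0.84, which did not pass over all genes (p = 0.00497, adjusted p = 1). Among arrays of first digit 1, the high-score values were 7.06 and 9.77 and the single low-score value was 8.73. The digit-9 call was kept in 6 of 11 fits that left out 1 array, and the difference stayed at -2.27 or below. It ended without CTX 4h replicate 11, 12, 13, 14 or 18, with adjusted p up to 0.0958. The split by digit was looked at after the values were seen.

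Within first digit 9, 8 genes passed the test, 0.0401% of those tested, and 0.552% of genes did not overlap between the groups. Besides Cdkn2a these were Ddias, Inka2, Ms4a7, Slc19a2 and Csrnp2, which were higher, and Pfn2 and Pter, which were lower. The calls other than Cdkn2a ended in each digit-9 fit that left out 1 array, except the fit without CTX 4h replicate 16. Without replicate 16, 26 genes passed. Ddias, a gene that restrains apoptosis after DNA damage, ran from 9.63 through 9.88 to 10.62 in high-score and from 8.29 through 8.70 to 9.11 in low-score arrays (1.32 ± 0.20, adjusted p = 0.0431). Pfn2, a profilin gene of actin dynamics, ran from 6.09 to 6.46 against 7.06 to 7.91 (-1.21 ± 0.18, adjusted p = 0.0431). Over the 20 arrays of all digits Ddias differed by 1.12 ± 0.21 (adjusted p = 0.0571). Within first digit 8 alone no gene passed, while 1199 had an unadjusted p under 0.05.

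When all 29 treated arrays were used, with the score as a slope, 27 genes rose with the score and 2 fell (0.146% of those tested). This fit shares its arrays with the 2-group fit, and 4 genes were called in both, which is 4 of 8 and 4 of 29. Of the 46 genes of the p53 lists, 4 were called: Polk (slope 1.08 ± 0.15 per unit of score, adjusted p = 0.000737), Slc19a2 (1.06 ± 0.16, 0.00178), Pidd1 (0.95 ± 0.16, 0.0096) and Psrc1 (0.97 ± 0.17, 0.0145). Outside the lists, Inka2 had a slope of 1.05 ± 0.15 (adjusted p = 0.000737). Immediate early genes, which respond to stress within minutes to hours, were called for Ier5 (0.73 ± 0.13), Atf3 (0.99 ± 0.21) and Junb (0.71 ± 0.15). Macrophage genes were called for C1qa, C1qb and Cd68, and inflammatory cytokine genes for Il1a, Ccl3 and Ccl4. The heme oxygenase gene Hmox1 rose by 1.45 ± 0.28 per unit. Ccng2, a relative of the score gene Ccng1 that quiescent cells induce, fell with a slope of -0.84 ± 0.17 (adjusted p = 0.0399). The other gene that fell was Hyls1 (-0.74 ± 0.15). Genes of this fit outside the rule for named genes were chosen after their values were seen.

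Macrophage markers were higher in high-score arrays. All 23 measured markers had a positive difference, where 11045 of all 19931 genes had one. Their median was 0.54, against 0.02 for all genes. Of these markers 1, Adgre1, passed the test, beside 0.0401% of all genes. The mean of the list ran from 8.86 through 9.49 to 10.1 in high-score, from 8.31 through 8.97 to 9.67 in low-score and from 8.51 through 9.04 to 9.47 in native arrays. Slc40a1, the iron exporter gene of macrophages, differed by 1.22 ± 0.27 (adjusted p = 0.183) and the complement gene C1qb by 0.81 ± 0.17 (adjusted p = 0.164). An array value has no zero, so it cannot be said which markers were absent. The list mean differed by -0.37, 0.488 and 0.837 within first digits 1, 8 and 9.

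With the macrophage mean as a further term, none of the 7 higher genes passed the test. Their differences kept their sign, at 0.82 for Inka2, 0.77 for Csrnp2, 0.76 for Slc19a2, 0.71 for Trp53inp1, 0.57 for Ms4a7, 0.99 for Adgre1 and 0.89 for Ccl9. Adgre1 is itself a member of the macrophage list, so its value in this fit is partly adjusted for itself. The adjusted p of Inka2, Trp53inp1 and Lmbr1 was then 0.148, and 2 other genes passed as lower. The median of the 46 p53 pathway genes was 0.05 in that fit, the same as the 0.05 for all genes. That of the death targets was 0.25. Whether macrophages have a part in the differences was not tested.

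Of 18 measured genes of secreted inflammatory factors, 17 were higher, with a median of 0.53 and none called. Their list mean differed by -0.0674, 0.657 and 0.754 within first digits 1, 8 and 9. Ccl3 ran from 7.51 through 9.37 to 11.22 in high-score and from 6.93 through 8.12 to 8.94 in low-score arrays (1.55 ± 0.41, adjusted p = 0.29). The monocyte chemokine Ccl2 ran from 6.72 through 9.48 to 11.1 against 7.19 through 7.88 to 8.84 (1.41 ± 0.37, adjusted p = 0.29). Stromal and endothelial markers had a median of 0.32, with 21 of 22 higher and none called, and the collagen gene Col1a1 differed by 0.84 ± 0.19 (adjusted p = 0.218). Genes of oxidative stress had a median of 0.29, with 13 of 14 higher and none called. Hmox1 ran from 10.85 through 11.88 to 13.02 against 9.21 through 10.84 to 11.30 (1.39 ± 0.29, adjusted p = 0.146). Immediate early genes had a median of 0.28, with 23 of 26 higher and none called, and a list mean that differed by -0.0354, 0.228 and 0.43 within the digits.

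Genes of G2 and mitosis were lower in high-score arrays for all 28 measured members, with a median of -0.47 and none called. Plk1, the kinase of mitotic entry, ran from 8.48 through 9.71 to 11.89 in high-score and from 9.92 through 10.67 to 12.06 in low-score arrays (-0.93 ± 0.31, adjusted p = 0.58). The list mean differed by 0.481, -0.435 and -0.749 within first digits 1, 8 and 9, so the sign turned in the digit with 3 arrays. Genes of DNA replication had a median of 0.19, with all 24 higher and none called, and a list mean that differed by 1.001, -0.0798 and 0.184 within the digits. Without CTX 4h replicate 29 its median was 0.09 with 15 of 24 higher, and without replicate 16 it was 0.12. In the slope over 29 arrays, 17 of 24 were positive. Ccne2, a cyclin of S phase entry, differed by 0.71 ± 0.15 (adjusted p = 0.146). With the mitosis mean as a term, no gene passed the test and the median of the 46 p53 pathway genes was 0.15, against 0.02 for all genes.

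**Figure D4:**
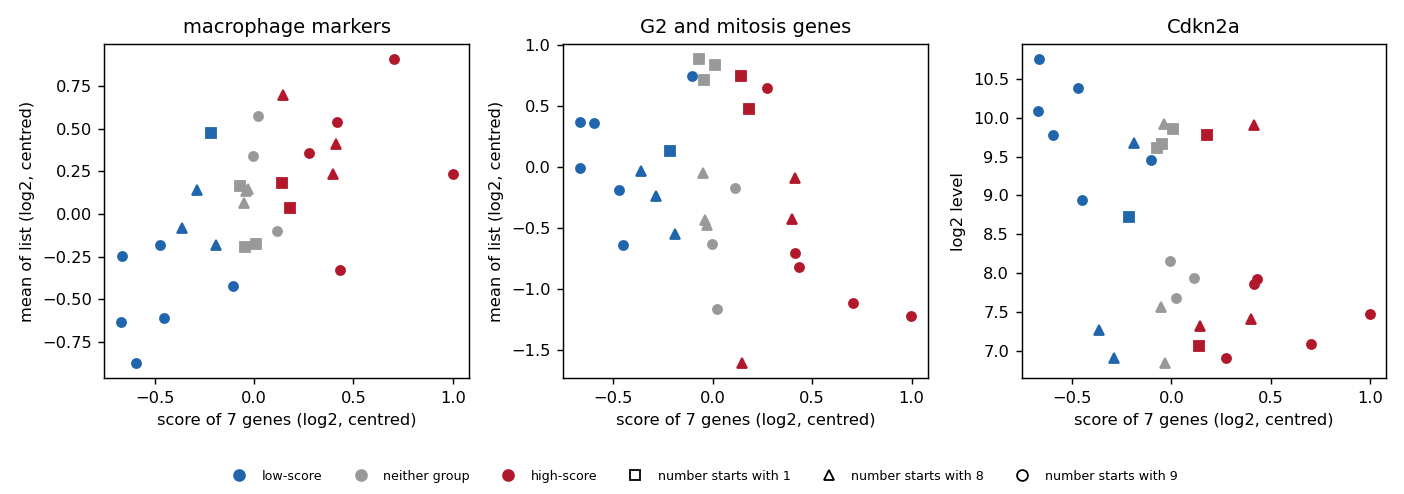
Mean of the macrophage markers, mean of the G2 and mitosis genes (both log2, centred per gene over all arrays) and log2 level of Cdkn2a on the y axes against the score (x axis), with 1 point for each of 29 CTX 4h arrays. Colours mark the score groups and shapes the first digit; among arrays of first digit 9, Cdkn2a is between 6.91 and 7.93 in high-score and between 8.95 and 10.75 in low-score arrays.

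All 12 pan-B-cell markers were lower in high-score arrays, with a median of -0.20 and none called. Precursor and mature B-cell markers had medians of 0.04 and -0.02, and plasma cell markers 0.10. The 14 neutrophil markers had a median of -0.47 and all were lower, but without CTX 4h replicate 29 the median was -0.03. Genes regulated by Myc in ribosome biogenesis had a median of 0.04, and Myc itself differed by -0.16 ± 0.11 (adjusted p = 0.999), at 13.12 in high-score and 13.28 in low-score arrays. Genes of the interferon response had a median of -0.07, which ran from -0.23 without CTX 4h replicate 11 to 0.29 without replicate 29, and a median slope of 0.31 over the 29 arrays. The medians of the precursor B-cell, mature B-cell and ribosome biogenesis lists also changed sign without replicate 29, to -0.12, 0.16 and -0.03. The BCL2 family and caspases had a median of 0.04 over 20 genes with none called. Bcl2l11, the death activator BIM, differed by 0.75 ± 0.20 (adjusted p = 0.352), and Bmf, of the same class, by -0.50 ± 0.23 (adjusted p = 0.874).

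Both groups were then set beside the 15 native arrays of 100 ng, in 1 fit with first digit as a term. The comparisons share the native arrays, so their values are given side by side only. High-score arrays were chosen as an extreme and native arrays were not, which by itself favours the p53 genes in this comparison. Against native, 71 genes were higher and 6 lower in high-score arrays (0.386%), and 3 and 0 with the macrophage mean as a further term. In low-score arrays no gene passed the test (0%), while 425 had an unadjusted p under 0.05. Passing in 1 group and not in the other does not show that they differ. The test of that difference is the comparison of the groups above.

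Hmox1 was 2.05 above native in high-score and 0.65 above it in low-score arrays (log2). The metallothionein gene Mt2, which binds metals under stress, was 1.85 and 0.76 above native. Ccl9 was 1.60 and 0.53 above, Dusp1, a phosphatase of stress kinases, 1.23 and 0.45, and the transcription factor gene Jun 0.98 and 0.30. Ccl2 was at 1.36 in high-score and -0.02 in low-score arrays, Inka2 at 0.92 and -0.02, and Slc19a2 at 0.91 and -0.02. Trp53inp1 was at 0.67 and 0.02, and Csrnp2 at 0.73 and -0.17. Adgre1 did not pass against native (0.85, adjusted p = 0.139) and was at -0.51 in low-score arrays. Of the 71 higher genes, 14 were small RNA genes such as Snora73a, at 0.85 and 0.33. Small RNA genes as a class differed between the score groups by 0.472, 0.507 and 0.467 within first digits 1, 8 and 9.

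By list, the 46 p53 pathway genes had a median of 0.22 against native in high-score and 0.04 in low-score arrays. Of them, 3 passed in high-score arrays, Trp53inp1, Slc19a2 and Dcxr, beside 0.386% of all genes. Death targets were at 0.27 and 0.03, with all 12 higher in high-score arrays and 9 in low-score arrays. Macrophage markers were at 0.49 and -0.07, and genes of G2 and mitosis at -0.48 and 0.02. Some lists were above native in both groups. Salivary gland markers were at 0.70 and 1.12 (tissue that lies beside neck nodes), glucocorticoid-induced genes at 0.25 and 0.42 with all 12 higher in both, and interferon response genes at 0.19 and 0.21.

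**Figure D5:**
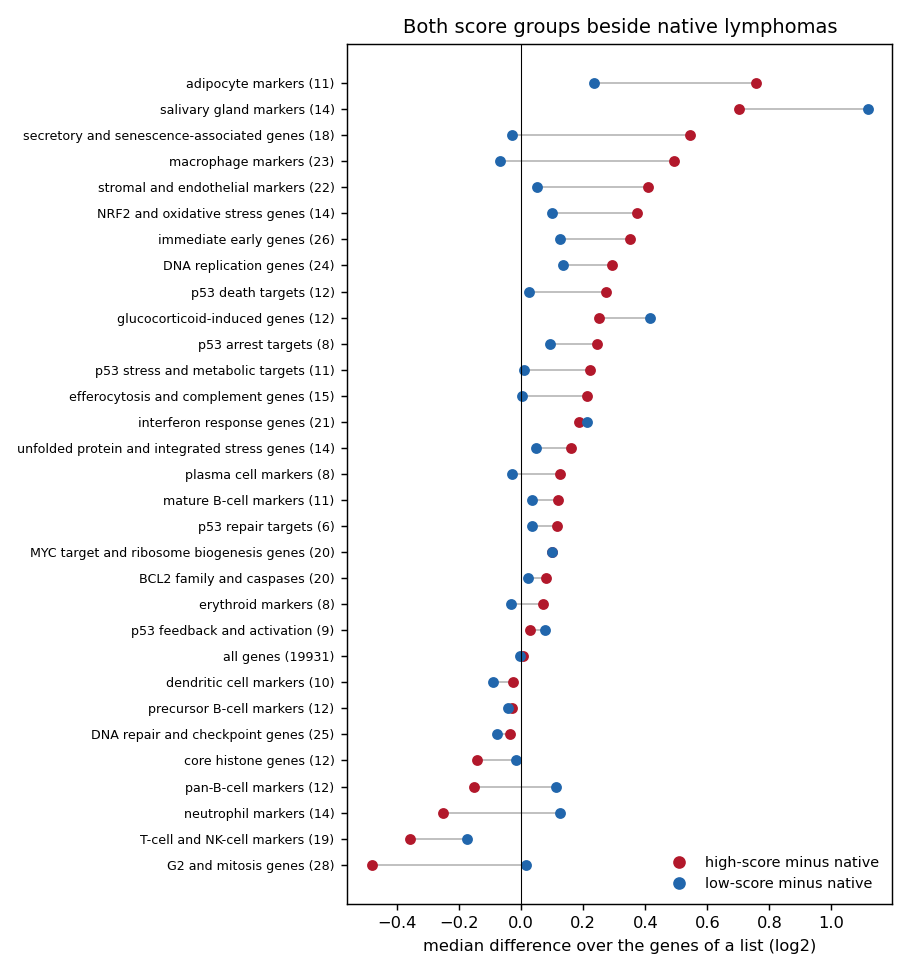
Median log2 difference from native arrays of 100 ng (x axis) over the genes of each list (y axis, number of measured genes in brackets), for the 10 high-score and 10 low-score arrays. The p53 death targets lie at 0.27 and 0.03, macrophage markers at 0.49 and -0.07, and G2 and mitosis genes at -0.48 and 0.02.

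Native arrays, which the choice of groups did not use, allow the same score to be tested without drug. Over all 32 native arrays no gene had a slope on the score that passed the test (0%), although 5820 had an unadjusted p under 0.05. Without native replicates 8 and 19, left out after the data were seen, the unadjusted count was 619. In the 15 native arrays of 100 ng alone, the input of the treated arrays, 1436 genes passed as higher and 1442 as lower. Without native replicate 8, an exclusion chosen after seeing the data, no gene passed in either direction and 1565 genes had an unadjusted p under 0.05. Over all 32 arrays, all 8 called genes had the same sign of slope as in treated arrays, where 9548 of 19931 genes had a positive slope. Over the 30 arrays without replicates 8 and 19, 7 of the 8 had the same sign, where 63.2% of all genes had a positive slope. The slopes given next for these 8 genes are those over the 30 arrays. No slope of the 8 passed. The native slope was 0.50 ± 0.17 for Inka2, 0.67 ± 0.32 for Csrnp2 and 0.62 ± 0.29 for Slc19a2, with unadjusted p of 0.00544, 0.0451 and 0.0386 and adjusted p of 1 for each. It was 0.60 ± 0.36 for Ms4a7, 0.32 ± 0.58 for Adgre1, 0.19 ± 0.52 for Trp53inp1, 0.10 ± 0.59 for Ccl9 and 0.07 ± 0.45 for Lmbr1, with unadjusted p from 0.104 to 0.876. Ddias had a native slope of 0.77 ± 0.38 (unadjusted p = 0.0537). The slopes of treated and native arrays of 100 ng were also tested against each other, where 18.8% of genes passed. Without native replicate 8 none did, and the treated minus native slope of Inka2 was then 0.71 (adjusted p = 1).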

How the data were processed

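Expression was measured on Affymetrix mouse gene arrays. The values are log2 signals that the authors deposited, made with RMA in Partek 6.5 per the submitters' processing notes; aligners and builds do not apply. Of 35557 probe sets, 21789 carried 1 gene symbol, 1621 several and 12147 none in the platform annotation, and 21698 matched a gene of RefSeq (GRCm38.p6). Each gene was read from its brightest probe set on average over the 63 arrays (19938 genes, 19931 after leaving out the 7 score genes). Groups came from the treatment label, the RNA input, the lymphoma number and the score. Differences were tested with limma 3.58.1 (R 4.3.3) on the log2 values, two-sided, with the number's first digit as a term and Benjamini-Hochberg adjustment over all genes at 0.05. Tables and figures used Python 3.11.15, pandas 2.3.3 and matplotlib 3.10.9. The number of arrays limits the precision. In data simulated for the high-score against low-score comparison over 19931 genes, 86 of 100 genes changed by 1 (log2) were called, 43 of 100 changed by 0.5, and 12 unchanged genes. Normal noise was drawn for each gene independently. Genes that vary together were not simulated, so these counts need not hold for the measured arrays.

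The score genes, gene lists and comparisons were chosen with earlier results of these data known. Named genes were those called in the first comparison, all measured p53 list genes, up to 4 genes per other list with the smallest p, the 5 smallest p of the native and of the treated minus native slope, and Cdkn2a, Myc, Mdm4, Ighm and Igll1. Alternatives covered the score, the group size, scaling, probe sets, other cells as terms, and single arrays.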

Additional observations from a re-analysis of the deposited data

Results flagged for a closer look

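In groups of 10 arrays, a highest or lowest array whose gap to the next was wide for its group was found 29 times in 338 groups, and chance gives about 1 in 20. The values were not centred by first digit. CTX 4h replicate 29 of the low-score group accounted for 14 of them. It was the only low-score array of first digit 1, so the array and its digit cannot be told apart here. It was the highest low-score array for the T-cell genes Cd3d (log2 level 8.888), Cd8a (10.61) and Prf1 (8.411), for the granule genes Mpo (9.474) and Elane (9.531), and for Xbp1 (11.93), Ccr7 (11.7), Ephx1 (10.47) and Abhd4 (9.4). It was the lowest for Exo1 (8.54), Siva1 (7.216), Trp53rkb (6.522), Snord35b (8.969) and the mean of small RNA genes (-1.541, centred). The high-score arrays of first digit 1, replicates 24 and 25, had small RNA means of -0.924 and -1.214.

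CTX 4h replicate 20 was the lowest high-score array for Mt2 (10.89), Col6a1 (7.937), the stromal mean (-0.5352, centred) and the mean correlation to other arrays (0.9409). Other high-score arrays apart from their group were the lowest for Cd79a (9.162, replicate 21) and Gadd45b (8.079, replicate 24) and the highest for Nfil3 (8.728, replicate 21) and Eda2r (6.164, replicate 12). Low-score arrays apart were the lowest for Atm (8.145, replicate 4) and Cd72 (9.904, replicate 2). They were the highest for Gadd45a (8.275, replicate 4), Btg2 (11.32, replicate 2), Gadd45g (7.378, replicate 18), Perp (8.431, replicate 17) and Prol1 (7.408, replicate 17).

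For 30 of the 162 named genes the slope on the score differed between treated and native arrays of 100 ng by limma with adjustment over all genes. Of all genes tested, 18.8% did so. The named genes include 5 chosen for the smallest p of this same test, so the 30 are no result about the named genes. For none of the 30 did the slope differ without native replicate 8. The treated slope was above the native one by 5.073 for Prol1, 1.814 for Psg28, 1.789 for 4930512M02Rik, 1.597 for Olfr384, 0.7815 for Rprm and 0.6729 for Rhag. The treated minus native slope was -2.266 for Plk1, -2.185 for H2ac4, -2.13 for Mzb1, -2.112 for Gnl3, -2.072 for Eif2s3x, -1.91 for H2ax, -1.9 for Cenpf, -1.817 for Exo1, -1.696 for Prc1, -1.609 for Ube2c, -1.571 for Polh, -1.49 for Rps27l, -1.438 for Myc, -1.434 for Rrm2, -1.342 for Nop56, -1.309 for Pank1, -1.303 for Rps9, -1.292 for Fbl, -1.28 for Mcm4, -1.161 for Sdf2l1, -1.142 for BC005537, -1.088 for Ext2, -0.9022 for Zkscan3 and -0.7269 for Hspa5.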

How the results depend on the processing

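No paired analysis was possible because the replicate numbers in the array titles do not tie a high-score array to a low-score or a native one. No difference of a named gene turned its sign past the threshold under the alternatives run. Between high-score and low-score arrays, 7 genes higher and 1 lower became 4 higher (score centred over all 29 arrays, or without Plk2), 3 higher (score genes scaled), 12 and 5 (score without Zmat3), 4 and 0 (7 against 7 arrays), 12 and 2 (14 against 15), 27 and 2 (slope), 0 and 0 (first digit 8), 3 lower (first digit 9), 3 and 0 (arrays set to a common median) and 45 and 20 (array weights). With terms for other cells the counts were 0 and 2 (macrophage), 1 and 3 (macrophage and stromal), 0 and 0 (small RNA) and 0 and 0 (mitosis, chosen after seeing the data). The lower gene was lost, at 0, in scores without Sesn2, Bbc3, Ccng1 or Mdm2, after quantile normalization, with probe sets averaged, above the median level, at a fold of 1.5 and without the array titled rep2. Leaving out 1 array gave 2 to 12 higher and 0 to 3 lower. The extremes were 2 without CTX 4h replicate 10, 16 or 17, 3 without 4, 4 without 7, 11, 14 or 20, 11 higher and 3 lower without 24, and 12 without 29. Causes were not tested.

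Against native, high-score counts of 71 and 6 became 3 and 0 with the macrophage term. The lower count was 18 after quantile normalization and 15 without native replicate 8. Leaving out 1 array gave 33 to 135 higher and 3 to 24 lower, with 33 without native replicate 2 or CTX 4h replicate 12, 35 without CTX 4h replicate 9, 36 without native 7, 39 without CTX 4h 11, 42 without native 3, 44 without CTX 4h 7 and 135 without native 5. The 24 lower came without CTX 4h replicate 16 and 15 without native 8, and low-score counts stayed at 0. Native slopes, 0 and 0, were 1436 and 1442 in 100 ng arrays alone, and 5 higher without native replicate 16 (0 to 5 and 0 over single arrays). Treated minus native slopes, 1923 and 1815, became 693 and 502 after quantile normalization. They became 0 and 0 with 300 ng arrays added or, in 100 ng arrays, without native replicate 8.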
